A study of Mus musculus with 13 samples.

Results

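Retinae of light-exposed PGC-1α KO mice (KO light) were compared with retinae of light-exposed WT mice (WT light), with 3 arrays in each group, 6 of the 13 arrays of the series. The arrays were taken by their labels, which give genotype, light, sex and replicate. All 6 mice were male by the labels and had been kept at 15000 lux for 2 h. The light was white by the paper's Results. The methods name dilated pupils, adaptation to darkness overnight before the exposure, and male mice of 6 to 13 weeks. Both retinae of a mouse were pooled for 1 Affymetrix Mouse Gene 1.0 ST array. After the light the mice recovered overnight in darkness by the methods. The exact time between the end of the light and the removal of the eyes was not clearly stated for the arrays in the sources used here. KO mice lacked PGC-1α in the whole body and came from a single knockout line, described as C57BL/6 with no substrain. WT mice were C57BL/6NRj animals bought from Janvier by the methods, while the paper's captions call them C57BL/6j. Genotype and substrain therefore cannot be told apart. The dark-adapted groups, 3 KO dark and 3 WT dark arrays of female mice, entered the estimate of each gene's spread, the interaction of genotype and light and the check of the arrays. A further dark array, labelled WT dark replicate 4, was of a male mouse.

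PGC-1α, the product of Ppargc1a, binds nuclear receptors and other transcription factors and raises genes of mitochondrial respiration. Bright light can kill photoreceptors by apoptosis. Müller glia, which span the whole retina, answer such injury with cytokine signaling through Stat3, with intermediate filaments and with secreted acute-phase proteins, while microglia and incoming macrophages take up debris. RNA of the whole retina was measured, so that fewer cells of a type and less RNA per cell cannot be told apart.

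The array labelled KO light replicate 3 and the array labelled WT dark replicate 4 each resembled the other's group, so each result is given as labelled and with WT dark replicate 4 in place of KO light replicate 3 ("with the exchanged array"). Over all genes, KO light replicate 3 correlated with the WT dark arrays 1 to 3 at a mean r of 0.9976 and with KO light replicates 1 and 2 at 0.992. WT dark replicate 4 correlated with KO light replicates 1 and 2 at 0.9974 and with the other WT dark arrays at 0.9899. A marker of genotype was sought in the arrays not in doubt: 22 genes separated the KO dark arrays from WT dark 1 to 3 and WT light 1 to 3 by at least 0.5 on the log2 scale. At 9 and 13 of them KO light replicates 1 and 2 lay nearer to the KO level, at 11 WT dark replicate 4 did, and at 1 KO light replicate 3 did. The WT light arrays and WT dark 1 to 3 had chosen these genes and are no yardstick for that count. Sik2, a kinase of the salt-inducible family, was at 9.62 and 9.72 in KO light replicates 1 and 2, at 9.59 in WT dark replicate 4 and at 10.75 in KO light replicate 3, with 10.40 to 10.81 in WT light. Others of the 22 went the other way for WT dark replicate 4. At Asns it was at 10.22, beside 9.39 to 9.50 in KO dark and 10.09 to 10.15 in WT dark 1 to 3. Since the array was exchanged for its likeness to KO light, p-values with it do not account for that choice. One more reading therefore leaves out KO light replicate 3 and brings in no other array ("without KO light replicate 3", 2 against 3 arrays).

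As labelled, 35 of 19189 genes (0.182%) were called between KO light and WT light, 24 higher (0.125%) and 11 lower (0.0573%) in KO light. Calls needed an adjusted p (Benjamini-Hochberg, limma) under 0.05 together with a KO to WT ratio of 1.2 or more, or of 0.87 or less. At an unadjusted p under 0.05 there were 2494, of which 864 passed the ratio as well. With the exchanged array 1600 genes (8.34%) were called, 891 higher (4.64%) and 709 lower (3.69%), and without KO light replicate 3 there were 1009 (5.26%), 622 higher (3.24%) and 387 lower (2.02%). All 35 genes called as labelled were called in the same direction in both other readings. Of the 1009 genes called without KO light replicate 3, KO light replicate 3 lay nearer to WT light than to KO light replicates 1 and 2 at 838, and WT dark replicate 4 lay nearer to KO light replicates 1 and 2 at 978. Neither array had entered that choice of genes. Both had been singled out for their likeness over all genes, so these counts are a description. The calls as labelled were few enough to depend on single arrays: 1 gene, Cdkal1, was called on leaving out each light array in turn, against 868 of the 1600 with the exchanged array. Without WT light replicate 1, 2 or 3 the labelled comparison gave 1, 4 and 9 calls, without KO light replicate 1 or 2 it gave 48 and 8, and the 6 light arrays fitted alone gave 0 in limma (1616 at an unadjusted p under 0.05, 664 with the ratio).

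Sequences are shown for the genes at which rods and a microRNA locus enter the results. Of 29 genes for phototransduction, outer segment structure and photoreceptor transcription that were lower in KO light with the exchanged array, 22 have a promoter in the RefSeq table (build GRCm38.p6). The letters TAATCC, the core that the photoreceptor factor Crx binds, read on both strands within 250 bases before the start, stood in 8 of them (36.4%), against 896 of 15009 promoters of tested genes (5.97%). Other letters were also more frequent in these 22 promoters than in all, TATAAA in 31.8% (11.2% of all), the AP-1 site TGANTCA in 13.6% (6.09%) and the STAT core TTCNNNGAA in 13.6% (6.72%). The match is a description of these letters and no proof of binding. Genes of the same lists that were not lower were not counted, so the share cannot be tied to the difference in KO light. The 4 whose window ends at the start of the annotated gene are printed 5′ to 3′ on the strand of the gene. TAATCC or its reverse complement GGATTA is in capitals. Cnga1, the channel subunit through which rod current flows, has its window at chr5:72642753-72643002 on the minus strand, and Cngb1, its partner subunit, at chr8:95306586-95306835 on the minus strand. Gnb5, a G protein β subunit of the complex that ends the rod response, has its window at chr9:75306038-75306287 on the plus strand. Crx, itself a regulator of rod and cone genes, has its window at chr7:15879956-15880205 on the minus strand.
Cnga1: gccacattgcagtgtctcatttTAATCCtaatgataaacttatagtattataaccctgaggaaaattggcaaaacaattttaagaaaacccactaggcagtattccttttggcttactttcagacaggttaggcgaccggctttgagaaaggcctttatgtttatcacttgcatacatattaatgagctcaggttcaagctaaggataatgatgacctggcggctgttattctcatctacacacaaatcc
Cngb1: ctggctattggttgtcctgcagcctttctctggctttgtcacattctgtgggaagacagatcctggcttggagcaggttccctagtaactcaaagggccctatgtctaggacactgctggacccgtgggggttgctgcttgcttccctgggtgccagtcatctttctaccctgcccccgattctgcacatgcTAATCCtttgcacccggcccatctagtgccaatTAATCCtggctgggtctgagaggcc
Gnb5: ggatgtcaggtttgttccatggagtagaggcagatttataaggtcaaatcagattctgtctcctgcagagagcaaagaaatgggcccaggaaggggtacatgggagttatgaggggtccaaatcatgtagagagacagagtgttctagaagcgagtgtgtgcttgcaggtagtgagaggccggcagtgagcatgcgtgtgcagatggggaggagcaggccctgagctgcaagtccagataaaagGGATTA
Crx: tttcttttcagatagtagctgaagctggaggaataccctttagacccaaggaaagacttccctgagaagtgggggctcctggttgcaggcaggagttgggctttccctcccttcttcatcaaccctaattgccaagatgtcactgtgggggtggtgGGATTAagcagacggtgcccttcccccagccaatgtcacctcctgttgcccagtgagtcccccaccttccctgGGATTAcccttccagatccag

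The matches in these 4 windows lay close to the start except in Cnga1. Cngb1 held it at 58 to 53 and at 25 to 20 bases before the start, Crx at 94 to 89 and at 21 to 16, Gnb5 at 6 to 1, and Cnga1 at 228 to 223. The AP-1 site stood in 3 of the 19 promoters found for the 22 reactive glial genes that were higher with the exchanged array (15.8%, 6.09% of all), and the STAT core in 1 (5.26%, 6.72% of all).

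The largest difference called as labelled was Gpnmb, a glycoprotein of phagocytic macrophages and pigment cells. Its log2 intensity was 9.40, 10.22 and 8.81 in KO light replicates 1 to 3 and 7.40, 7.38 and 7.73 in WT light, with 9.89 in WT dark replicate 4. All KO light arrays lay above all WT light arrays, and the 6 dark arrays lay between 7.83 and 8.25. The log2 difference was 1.97 (SE 0.26, adjusted p = 0.0183 in limma, a ratio of 3.92) as labelled and 2.33 (SE 0.17, adjusted p = 7.49e-05) with the exchanged array. Leaving out WT light replicate 1 or 2 ended the labelled call, at an adjusted p of up to 0.0811.

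Cdkal1, an enzyme that modifies tRNA for lysine, had the lowest adjusted p as labelled. It was at 9.63, 9.70 and 9.66 in KO light and at 9.06, 8.92 and 9.05 in WT light, with 9.59 in WT dark replicate 4. The dark arrays lay at 9.63 to 9.81, near KO light, and the WT light arrays alone were low. The difference was 0.65 (SE 0.05, adjusted p = 0.000448 in limma) as labelled and 0.63 (SE 0.05, adjusted p = 9.84e-05) with the exchanged array, and the interaction of genotype and light was 0.76 as labelled (adjusted p = 0.00386). The genotype difference after light minus that in darkness is meant by the interaction.

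WT light standing apart from the other 3 groups was common among the genes called as labelled. At 34 of the 35 the WT light mean lay outside the range of the KO light, KO dark and WT dark means, and at 30 the WT dark mean lay nearer to KO light than to WT light. The first count was 11023 over all 19189 genes and, with the exchanged array, 641 of the 1600 called. KO light replicate 3, which resembled the dark arrays, took part in choosing the 35, so these counts are a description. Shisa4, a small membrane protein, was at 10.09, 10.08 and 10.03 in KO light, at 9.35, 9.51 and 9.65 in WT light and at 9.97 to 10.17 in the 6 dark arrays. Its difference was 0.56 (SE 0.07, adjusted p = 0.0183 in limma) as labelled and 0.59 with the exchanged array. At 25 of the 35 the difference between KO and WT had the same sign in darkness. Neither this count nor that of 30 was taken over all genes, so they cannot be called a trait of the 35.

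**Figure D1:**
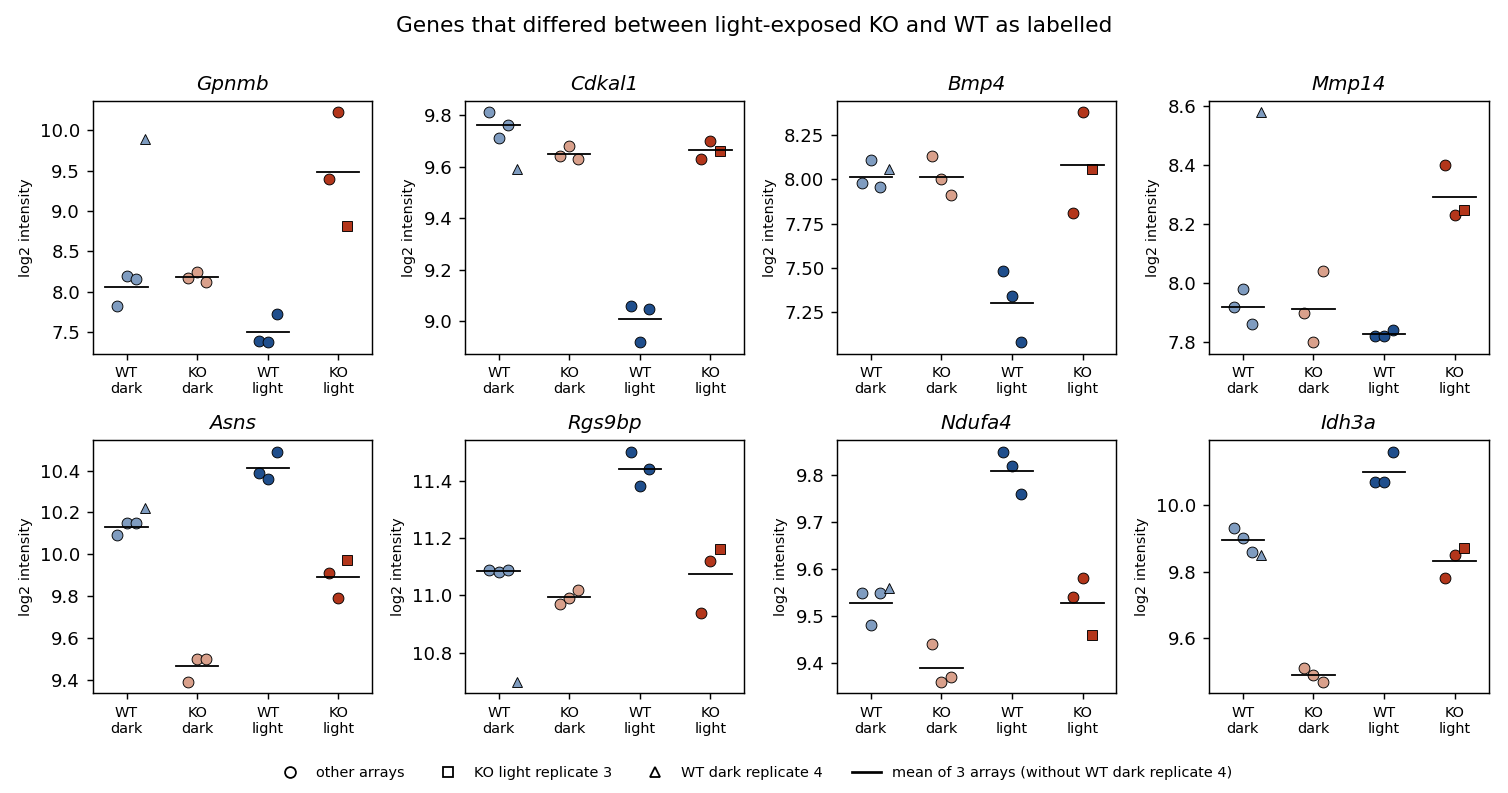
Log2 intensity (vertical axis) of 8 genes called between KO light and WT light as labelled, 1 point per array in the 4 groups on the horizontal axis, with lines for the mean of 3 arrays, a square for KO light replicate 3 and a triangle for WT dark replicate 4. Cdkal1 was near 9.6 or above in all groups but WT light, and in each panel the KO light arrays did not overlap the WT light arrays.

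Genes of the extracellular matrix and of growth factor signaling stood among the calls as labelled. Mmp14, a protease of the cell membrane that cuts matrix and activates other proteases, was at 8.40, 8.23 and 8.25 in KO light and at 7.82, 7.82 and 7.84 in WT light. The KO light arrays lay well above this narrow WT light range, with a difference of 0.47 (SE 0.07, adjusted p = 0.0215 in limma) as labelled and 0.58 (adjusted p = 0.000702) with the exchanged array. Bmp4, a ligand of the BMP pathway, was at 7.81, 8.38 and 8.06 against 7.48, 7.34 and 7.08. The difference was 0.78 (SE 0.13, adjusted p = 0.0395) as labelled and 0.78 (adjusted p = 0.00176) with the exchanged array. Pcolce, which speeds the trimming of procollagen, was at 9.02, 8.62 and 8.60 against 7.78, 7.96 and 8.11. Its difference of 0.80 (SE 0.12, adjusted p = 0.0215) grew to 1.01 with the exchanged array. Abi3bp, a matrix protein, was higher by 0.59, Pappa, a protease of insulin-like growth factor binding proteins, by 0.46, and Adamts9, a protease of proteoglycans, by 0.28.

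Over the list of 17 matrix proteases and inhibitors, 2 were higher as labelled (Mmp14 and Adamts9), 5 without KO light replicate 3, and with the exchanged array 6 were higher and 1 lower. The list's median log2 difference was 0.07 as labelled and 0.16 with the exchanged array, beside -0.01 and -0.02 over all genes. Timp3, an inhibitor of these proteases, was at 10.79, 10.74 and 10.33 in KO light and at 10.10, 9.88 and 10.08 in WT light (difference 0.60, adjusted p = 0.0633, as labelled and 0.83, adjusted p = 0.000157, exchanged). Of 26 TGF-β and BMP genes 1 was higher as labelled and 8 with the exchanged array, among them Bmp2 (0.56), Tgfb2 (0.50) and Smad5 (0.46), and none was lower in either reading. The shares higher over all genes were 0.125% as labelled and 4.64% with the exchanged array. Fndc1, a protein of fibronectin domains, ran the other way at 7.37, 8.21 and 8.23 in KO light against 9.30, 8.68 and 9.23 in WT light, while in darkness KO lay above WT. It was not called as labelled (-1.13, adjusted p = 0.0633 in limma) and was lower with the exchanged array (-1.22, adjusted p = 0.0016).

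Other genes higher as labelled include developmental regulators, channels and adhesion proteins. Eya1, a coactivator and phosphatase of eye development, was higher by 0.52, Anxa3, an annexin, by 0.49, and Frrs1, a ferric reductase, by 0.50. Wfdc10, a protein of the family of secreted protease inhibitors, was higher by 0.42. Values of the other genes called higher lay between 0.28, for Cacna1g, a calcium channel subunit, and 0.40, for Arhgap15, a Rac regulator, and Rhoj, a small GTPase of endothelial cells. They include Adam22, an adhesion protein of synapses, Gstm2, a glutathione transferase, Fxyd7, a regulator of the sodium pump, Lpp, a protein of focal adhesions, Asic3, a proton-gated channel, Chst15, a sulfotransferase, and Plxdc2, a membrane protein.

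The probe set of Mir204 was named here after its values were seen, since microRNAs were not among the genes to be named. Its locus at chr19:22750605-22750672 lies inside Trpm3, a channel gene. The array signal does not measure the mature microRNA, whose RefSeq sequence is given with its seed, bases 2 to 8, in capitals.
mmu-miR-204-5p: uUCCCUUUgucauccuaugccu

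Mir204 was at 9.16, 9.26 and 9.19 in KO light and at 8.77, 8.91 and 8.76 in WT light, and the dark arrays lay at 9.23 to 9.34. The KO light arrays thus lay near the dark level and the WT light arrays below it. The difference was 0.39 (SE 0.05, adjusted p = 0.0215 in limma) as labelled and 0.35 (adjusted p = 0.0021) with the exchanged array. Trpm3 itself was at 10.69, 10.76 and 10.61 against 10.47, 10.52 and 10.57, a difference of 0.17 (adjusted p = 0.195) as labelled.

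Among the 11 genes lower in KO light as labelled were enzymes of asparagine synthesis and of mitochondria. Asns, which makes asparagine and belongs to the amino acid response, was at 9.91, 9.79 and 9.97 in KO light and at 10.39, 10.36 and 10.49 in WT light. No KO array reached the WT range, and in darkness the same order was seen, at 9.39 to 9.50 in KO and 10.09 to 10.15 in WT. The difference after light was -0.53 (SE 0.06, adjusted p = 0.00885 in limma) as labelled and -0.44 (adjusted p = 0.0057) with the exchanged array, WT dark replicate 4 being at 10.22, as high as the WT dark arrays. Idh3a, an isocitrate dehydrogenase subunit of the citrate cycle, was at 9.78, 9.85 and 9.87 against 10.07, 10.07 and 10.16. Its difference was -0.27 (SE 0.05, adjusted p = 0.0472) as labelled and -0.27 (adjusted p = 0.0015) exchanged, and in darkness KO lay at 9.47 to 9.51 and WT at 9.86 to 9.93. Ndufa4, a small subunit of the respiratory chain, was at 9.54, 9.58 and 9.46 against 9.85, 9.82 and 9.76. The KO arrays were again below all WT arrays, with a difference of -0.29 (SE 0.05, adjusted p = 0.0472) as labelled and -0.25 (adjusted p = 0.00225) exchanged. Rarb, a retinoic acid receptor, was lower by 0.58, Nt5e, which makes adenosine from AMP, by 0.43, and Jag1, a Notch ligand, by 0.36. Cd300lf, a receptor of myeloid cells, was lower by 0.30, and Abca13, a lipid transporter, by 0.29. The remaining calls were Dgkeos, an antisense transcript, and A930005H10Rik, at -0.51 and -0.46.

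Most other mitochondrial genes had slightly lower means in KO light that did not pass the test. Of 33 genes listed for complex I, 28 had a lower mean as labelled, beside 10829 of 19189 over all genes. The median was -0.11 as labelled and -0.05 with the exchanged array. Against the WT light mean the list lay at -0.1, -0.05 and -0.16 in KO light replicates 1 to 3. In WT dark 1 to 3 it lay at -0.08 to -0.13. As labelled 1 of these genes was called lower, Ndufa4, which is now assigned to complex IV. With the exchanged array 3 were lower, Ndufa4, Ndufs3 (-0.29) and Ndufa10 (-0.28), beside 3.69% of all genes. Of 38 genes listed for complexes II to V none was called as labelled (median -0.10). With the exchanged array 5 were lower (median -0.07), led by Sdhd (-0.42), the membrane anchor of complex II. Citrate cycle genes gave 1 lower of 22 as labelled and 4 lower and 1 higher exchanged, the last being Idh2 (0.33), the NADP-dependent enzyme. Fatty acid oxidation genes had a median of 0.00 as labelled and 1 of 20 lower exchanged, Hadhb (-0.36), a share near the 3.69% of all genes. Cox5b and Cycs, respiratory genes known as PGC-1α targets, differed by -0.09 and -0.10 (adjusted p = 0.474 and 0.581 in limma) as labelled.

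Glycolysis genes of photoreceptors were not called as labelled, and 4 of 18 were lower with the exchanged array, beside 3.69% of all genes. Hk2, the hexokinase of photoreceptors, was at 10.37, 10.43 and 10.45 in KO light and at 10.75, 10.72 and 10.72 in WT light, -0.31 (adjusted p = 0.0668) as labelled and -0.33 (adjusted p = 0.00286) exchanged. Slc16a1, a lactate carrier, had -0.46, and Pfkfb2, a regulator of phosphofructokinase, -0.41 in the second reading. Ppargc1a itself was at 10.02, 10.25 and 9.96 in KO light and at 9.96, 9.85 and 9.99 in WT light, a difference of 0.14 (adjusted p = 0.466). The sources used here do not place the probe set inside or outside the deleted sequence, so this value is no check of the genotype. Its relative Ppargc1b differed by -0.12 (adjusted p = 0.695) as labelled and was lower by -0.35 (adjusted p = 0.00724) exchanged, as was Esrrb, a nuclear receptor of rods (-0.43).

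Rod phototransduction genes were lower in KO light in the readings without KO light replicate 3. Of 19 measured, 1 was called lower as labelled, 11 without KO light replicate 3 and 14 with the exchanged array, and none was higher. The shares lower over all genes were 0.0573%, 2.02% and 3.69% in these readings. All 19 had a lower mean as labelled, with a median of -0.17, and the median was -0.31 with the exchanged array. Rgs9bp, the membrane anchor of the complex that ends the light response, was the gene called as labelled. It was at 10.94, 11.12 and 11.16 in KO light and at 11.50, 11.38 and 11.44 in WT light, with 10.70 in WT dark replicate 4. The dark arrays lay at 10.97 to 11.09, so that WT light stood above the other groups. The difference was -0.37 (SE 0.06, adjusted p = 0.0329 in limma) as labelled and -0.52 (adjusted p = 0.00122) exchanged.

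For the other rod genes KO light replicate 3 lay near WT light. Slc24a1, the exchanger that removes calcium from rod outer segments, was at 11.08, 11.28 and 11.46 in KO light, at 11.66, 11.60 and 11.57 in WT light and at 11.02 in WT dark replicate 4. Its difference was -0.34 (adjusted p = 0.118) as labelled and -0.49 (SE 0.06, adjusted p = 0.000424 in limma) exchanged. Cngb1 was at 9.22, 9.34 and 9.91 against 9.67, 9.61 and 9.67, so that KO light replicate 3 stood above WT light and replicates 1 and 2 below it. Its difference was -0.16 (adjusted p = 0.652) as labelled and -0.44 (adjusted p = 0.00052) exchanged. Cnga1 had -0.28 (adjusted p = 0.153) and -0.40 (adjusted p = 0.00229), Pde6b, a catalytic subunit of the rod phosphodiesterase, -0.21 (adjusted p = 0.234) and -0.33 (adjusted p = 0.00182), and Pdc, which binds transducin βγ, -0.27 (adjusted p = 0.162) and -0.43 (adjusted p = 0.00318). Gnat1, the rod transducin, was at 13.68, 13.72 and 13.74 against 13.74, 13.74 and 13.70, and its difference was -0.01 as labelled and -0.05 exchanged (adjusted p = 0.929 and 0.446).

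Transcription factors of rods were lower with the exchanged array as well. Nrl, which sets rod identity, was at 9.09, 9.51 and 9.79 in KO light and at 9.96, 9.85 and 9.82 in WT light, and the lowest of all arrays was WT dark replicate 4. The 6 dark arrays lay at 9.86 to 9.94, near WT light, and KO light replicate 3 was just below that range. The difference was -0.41 (adjusted p = 0.208) as labelled, -0.57 (adjusted p = 0.00472) without KO light replicate 3 and -0.68 (SE 0.10, adjusted p = 0.00098 in limma) exchanged. Mef2c, a factor active in photoreceptors, was at 9.67, 9.92 and 10.52 against 10.40, 10.34 and 10.36, which gave -0.33 (adjusted p = 0.377) and -0.61 (adjusted p = 0.000143). Crx was at 11.09, 11.36 and 11.40 against 11.51, 11.51 and 11.43, with -0.20 (adjusted p = 0.281) and -0.34 (adjusted p = 0.0123). Of 13 such factors none was called as labelled, and 6 were lower and 2 higher exchanged, beside 3.69% and 4.64% of all genes. The 2 higher were Bhlhe40, a clock-linked repressor (0.56), and Neurod1.

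Outer segment and cone genes moved less evenly. Of 17 outer segment genes none was called as labelled and 9 were lower exchanged, led by Rpgrip1, a protein of the connecting cilium (-0.55), and Fscn2, an actin bundler of photoreceptors (-0.46). Impg2, a proteoglycan of the matrix around photoreceptors, was higher at 0.50 (adjusted p = 0.00255 in limma). Of 11 cone genes none was called as labelled. With the exchanged array 4 were lower, Gnat2, the cone transducin (-0.55), Kcnv2 (-0.46), a potassium channel subunit, Kcne2 (-0.42) and Pde6h, and 1 was higher, Gnb3 (0.44), a transducin β subunit shared with bipolar cells. Opn1sw, the short-wave cone opsin, was at 11.76, 12.28 and 12.23 against 12.35, 12.33 and 12.11 and did not pass in either reading (-0.18 and -0.39, adjusted p = 0.557 and 0.0734). Bipolar genes gave 2 lower of 14 exchanged, ganglion genes 2 higher of 14, and amacrine and horizontal genes none of 17. Over all genes 3.69% were lower and 4.64% higher in that reading.

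**Figure D2:**
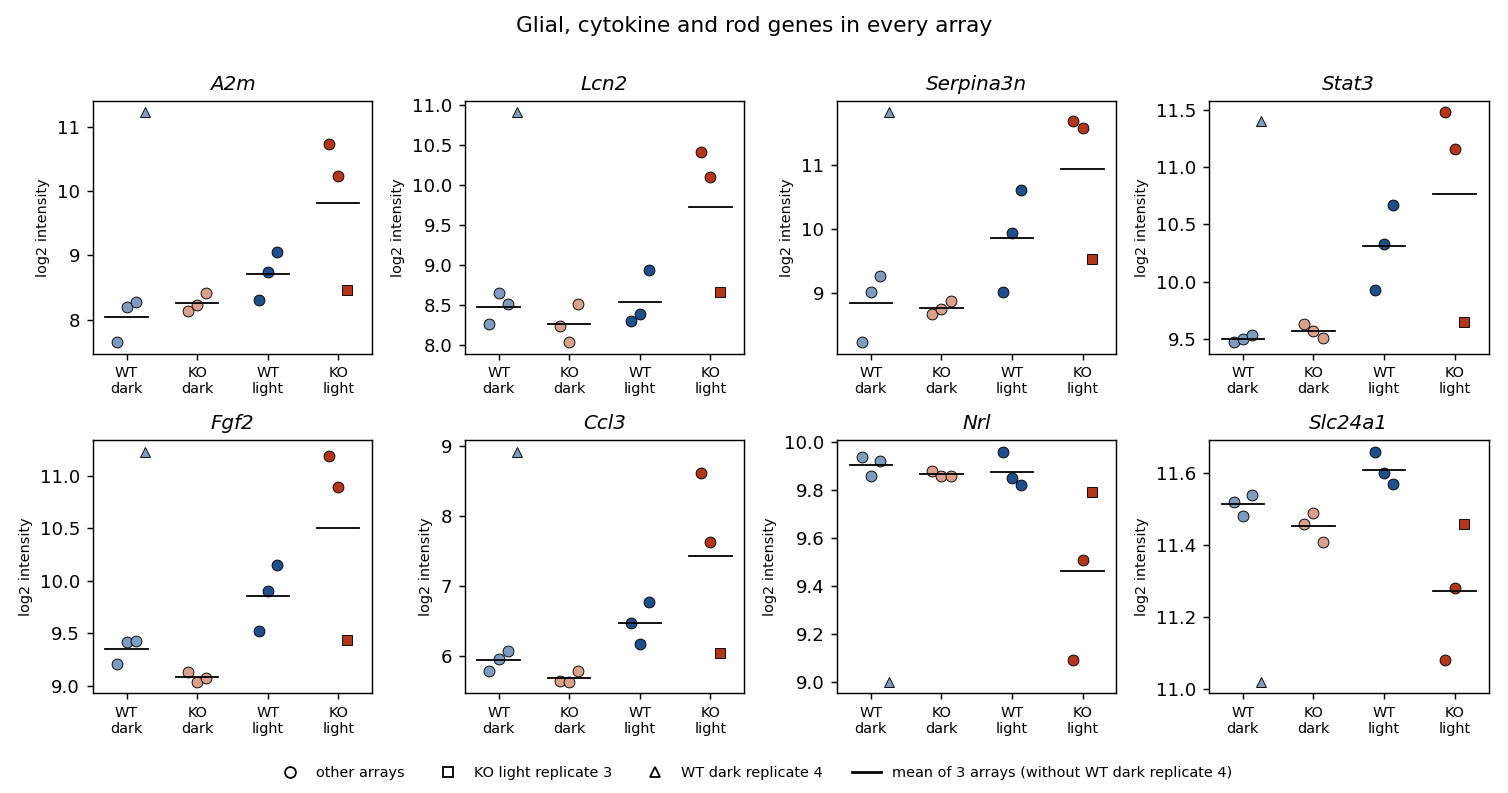
Log2 intensity (vertical axis) of 6 glial and cytokine genes and the rod genes Nrl and Slc24a1, 1 point per array in the 4 groups on the horizontal axis, with lines for the mean of 3 arrays, a square for KO light replicate 3 and a triangle for WT dark replicate 4. For A2m the triangle stood at 11.23 beside KO light replicates 1 and 2 at 10.73 and 10.24, and the square at 8.46 stood within the WT light range.

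Reactive glial genes gave the largest share of calls of any list with the exchanged array. The list was written with earlier results of these data known. The array was exchanged for its likeness to KO light, so this rank is a description. Of 28 genes 22 were higher and none lower, against 4.64% of all genes that were higher, and 20 were higher without KO light replicate 3. As labelled none was called, although 25 of the 28 had a higher mean (8360 of 19189 over all genes) and the median was 0.45. With the exchanged array the median was 0.98. The mean level of the list was 9.25, 8.94 and 8.03 in KO light replicates 1 to 3 and 8.09, 8.24 and 8.51 in WT light. It was 9.43 in WT dark replicate 4, and KO light replicate 3 lay just above the 6 other dark arrays, of which the lowest was at 7.83, and below every WT light array.

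Secreted acute-phase proteins led the list. A2m, a broad protease inhibitor, was at 10.73, 10.24 and 8.46 in KO light, at 8.31, 8.75 and 9.06 in WT light and at 11.23 in WT dark replicate 4. Its difference was 1.10 (SE 0.43, adjusted p = 0.314 in limma) as labelled, 1.78 (adjusted p = 0.00143) without KO light replicate 3 and 2.03 (SE 0.24, adjusted p = 0.000292) exchanged. Lcn2, an iron-siderophore binder, was at 10.41, 10.10 and 8.66 against 8.30, 8.39 and 8.94, with 10.91 in WT dark replicate 4. KO light replicate 3 thus lay inside the WT light range, and the difference was 1.17 (adjusted p = 0.195) as labelled and 1.92 (SE 0.20, adjusted p = 0.000187) exchanged. Serpina3n, a serine protease inhibitor of reactive glia, was at 11.69, 11.57 and 9.53 against 9.02, 9.93 and 10.60, with 1.08 (adjusted p = 0.4) and 1.84 (adjusted p = 0.00247).

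Cytokine signaling genes went the same way, as did the filament gene Vim, chosen after its values were seen. Stat3, the transcription factor of the IL-6 family, was at 11.48, 11.16 and 9.65 in KO light and at 9.93, 10.33 and 10.67 in WT light. In the dark arrays it lay at 9.47 to 9.63, and KO light replicate 3 lay at that level. The difference was 0.45 (adjusted p = 0.627) as labelled and 1.04 (SE 0.14, adjusted p = 0.000519 in limma) exchanged. Cd44, a hyaluronan receptor, had 0.79 (adjusted p = 0.356) and 1.56 (adjusted p = 0.000436), and Vim, a filament of Müller glia, 0.28 (adjusted p = 0.539) and 0.61 (adjusted p = 0.000488). Fgf2, a growth factor that protects photoreceptors, was at 11.19, 10.89 and 9.44 against 9.52, 9.90 and 10.15, with 0.65 (adjusted p = 0.435) and 1.25 (adjusted p = 0.000181). Edn2, an endothelin made by stressed photoreceptors, had 0.77 (adjusted p = 0.292) and 1.28 (adjusted p = 0.00155), and Ednrb, its receptor on Müller glia, 0.68 (adjusted p = 0.349) and 1.41 (adjusted p = 0.00283). Of 24 genes of the IL-6 family and Stat3 signaling 7 were higher and 1 lower exchanged, beside 4.64% and 3.69% of all genes. Among the higher ones were Osmr (1.31), the oncostatin M receptor, and Lif (0.52), and none of the 24 was called as labelled.

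Among homeostatic genes of Müller glia, 6 of 18 were higher and 3 lower with the exchanged array, beside 4.64% and 3.69% of all genes. Crym, a thyroid hormone binder, was higher by 1.18, Ptgds, a prostaglandin synthase, by 0.72, and Sox2, a progenitor factor, by 0.50. Glul, the glutamine synthetase of these cells, was at 11.71, 12.05 and 12.33 in KO light against 12.35, 12.26 and 12.07 and was lower in the second reading (-0.44, adjusted p = 0.0104 in limma, and -0.20, adjusted p = 0.518, as labelled).

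**Figure D3:**
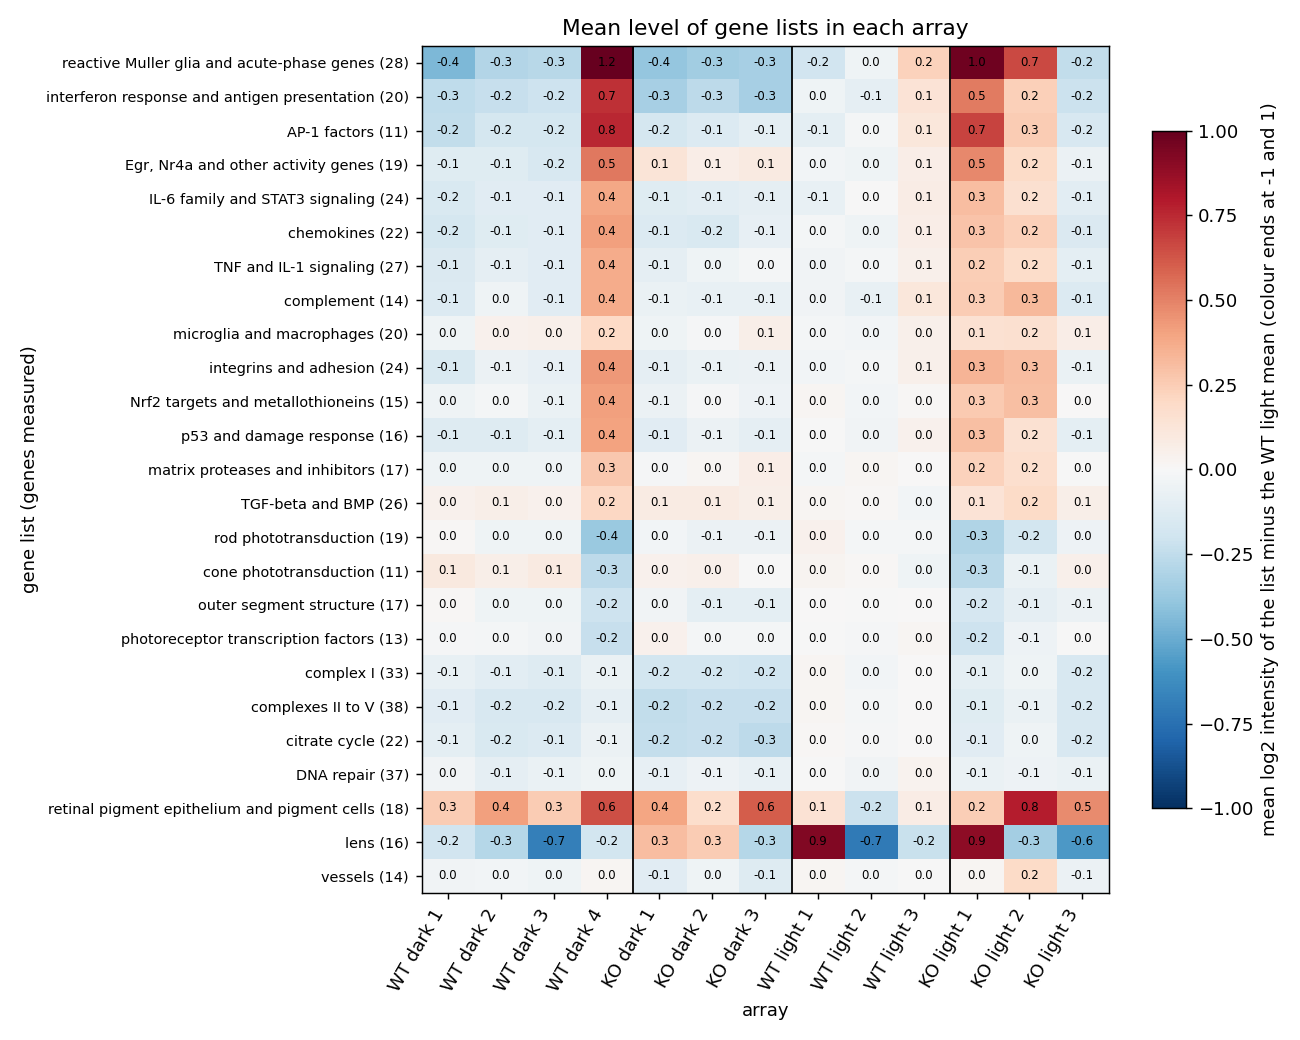
Mean log2 intensity of 25 gene lists (rows, with the number of genes measured) in each of the 13 arrays (columns), shown as the difference from the mean of the WT light arrays by colour and number, the colour ending at -1 and 1. For the reactive glial list KO light replicates 1 and 2 and WT dark replicate 4 stood at 0.97, 0.66 and 1.15, KO light replicate 3 at -0.25, and the lens list was highest in KO light replicate 1 and WT light replicate 1.

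Immediate early genes and inflammatory genes were higher with the exchanged array, and none of them was called as labelled. Of 11 AP-1 factors 6 were higher, of 19 Egr, Nr4a and other activity genes 10, of 22 chemokine genes 6, of 14 complement genes 5 and of 20 interferon and antigen presentation genes 13, with none lower in these 5 lists. Without KO light replicate 3 the counts were 6, 7, 6, 5 and 8. The shares higher over all genes were 4.64% with the exchanged array and 3.24% without KO light replicate 3. Atf3, a stress-induced AP-1 factor, was at 9.39, 8.61 and 7.42 in KO light and at 7.54, 7.82 and 7.99 in WT light (0.69, adjusted p = 0.416, and 1.45, adjusted p = 0.000664). Nr4a1, a nuclear receptor induced by activity, was at 10.31, 10.18 and 8.45 against 8.72, 8.93 and 9.22 (0.69, adjusted p = 0.465, and 1.27, adjusted p = 0.000292), and in darkness it already lay at 8.77 to 9.45 in KO and 8.06 to 8.17 in WT. Myc, a growth regulator, had 0.67 (adjusted p = 0.0707) and 1.10 (adjusted p = 0.000646).

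Chemokines and cytokine receptors followed. Ccl3, which draws monocytes, was at 8.61, 7.63 and 6.04 in KO light and at 6.47, 6.17 and 6.77 in WT light, with 8.92 in WT dark replicate 4. KO light replicate 3 lay below all WT light arrays, and the difference was 0.96 (adjusted p = 0.387 in limma) as labelled and 1.92 (SE 0.25, adjusted p = 0.000484) exchanged. Ccl2, the monocyte chemoattractant, had 0.29 (adjusted p = 0.515) and 0.88 (adjusted p = 0.0157), and Cxcl13, which draws B cells, 0.86 (adjusted p = 0.558) and 1.70 (adjusted p = 0.00125). Il1b was at 6.10, 5.96 and 5.93 against 6.31, 5.91 and 6.11 and did not pass in either reading (-0.11 and -0.05). Of 27 TNF and IL-1 signaling genes 9 were higher and 1 lower exchanged, beside 4.64% and 3.69% of all genes. Among the higher ones were Myd88 (1.00), the adaptor of IL-1 and Toll-like receptors, and Vcam1 (1.01), which binds leukocytes. Irf9 (1.30) and Stat2 (1.16), which together carry the interferon signal, Irgm1 (1.15), an interferon-induced GTPase, and B2m (0.84), the light chain of MHC class I, led the interferon list.

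Markers of microglia and macrophages moved in part. Cd68, a lysosomal protein of phagocytes, was at 8.42, 8.03 and 7.51 in KO light and at 7.45, 7.46 and 7.67 in WT light (0.46, adjusted p = 0.264, and 0.86, adjusted p = 0.0009 in limma). Lyz2, lysozyme, had 0.41 and 0.64, and Fcer1g, a signal chain of Fc receptors, 0.30 and 0.38, the second value of each passing the test. Cx3cr1, P2ry12, Csf1r and Aif1, defining genes of microglia, had differences of -0.02, 0.07, 0.18 and -0.11 as labelled and 0.07, -0.10, 0.14 and -0.17 exchanged, and none passed. In all 4 of 20 genes of that list were higher exchanged, beside 4.64% of all genes. Of 11 genes of blood cells and infiltrating leukocytes none was called in either reading, the list means lying at 5.48 to 5.56 (KO light) and 5.58 to 5.62 (WT light).

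Stress and death genes gave smaller counts. The shares over all genes with the exchanged array were 4.64% higher and 3.69% lower. Of 15 Nrf2 targets and metallothioneins 5 were higher exchanged, among them Mt1 (0.95) and Mt2 (0.89), which bind zinc, Slc7a11 (0.84), the cystine carrier, and Hmox1 (0.72), heme oxygenase. Of 23 genes of the unfolded protein response 5 were higher and 2 lower, Hspa5, the chaperone of the endoplasmic reticulum, being at 11.34, 11.10 and 10.69 in KO light and at 10.70, 10.71 and 10.61 in WT light (0.37, adjusted p = 0.231, and 0.61, adjusted p = 0.000292 in limma). Gpx3, a secreted glutathione peroxidase, was at 10.82, 11.36 and 10.83 against 10.36, 10.30 and 10.26, so that KO light replicate 3 lay above WT light here. It had 0.69 (adjusted p = 0.0633) as labelled and 0.73 (adjusted p = 0.0023) exchanged.

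Fas, a death receptor, was at 5.76, 5.80 and 5.32 in KO light and at 5.33, 5.36 and 5.39 in WT light, with 6.01 in WT dark replicate 4. The difference was 0.27 (adjusted p = 0.338 in limma) as labelled and 0.50 (adjusted p = 0.00156) exchanged. Bcl2, which blocks apoptosis, was at 9.32, 9.61 and 9.87 against 9.74, 9.75 and 9.83, with -0.17 (adjusted p = 0.519) and -0.32 (adjusted p = 0.00624). Casp8, the caspase of death receptors, had 0.38 (adjusted p = 0.366) and 0.72 (adjusted p = 0.00541). Of 15 Bcl-2 family genes 1 was higher and 1 lower exchanged, of 17 death receptor genes 5 were higher, and of 16 caspase and apoptosome genes 1 was. The share higher over all genes was 4.64%. Gadd45b, a stress sensor, was at 9.98, 9.26 and 7.34 against 7.71, 7.90 and 8.35 and was higher by 1.88 (adjusted p = 0.000362) in the second reading. DNA repair genes gave 2 lower of 37, Blm and Fancg at -0.26 each, near the 3.69% of all genes that were lower, and in all of these lists no gene was called as labelled except Asns of the unfolded protein response list.

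**Figure D4:**
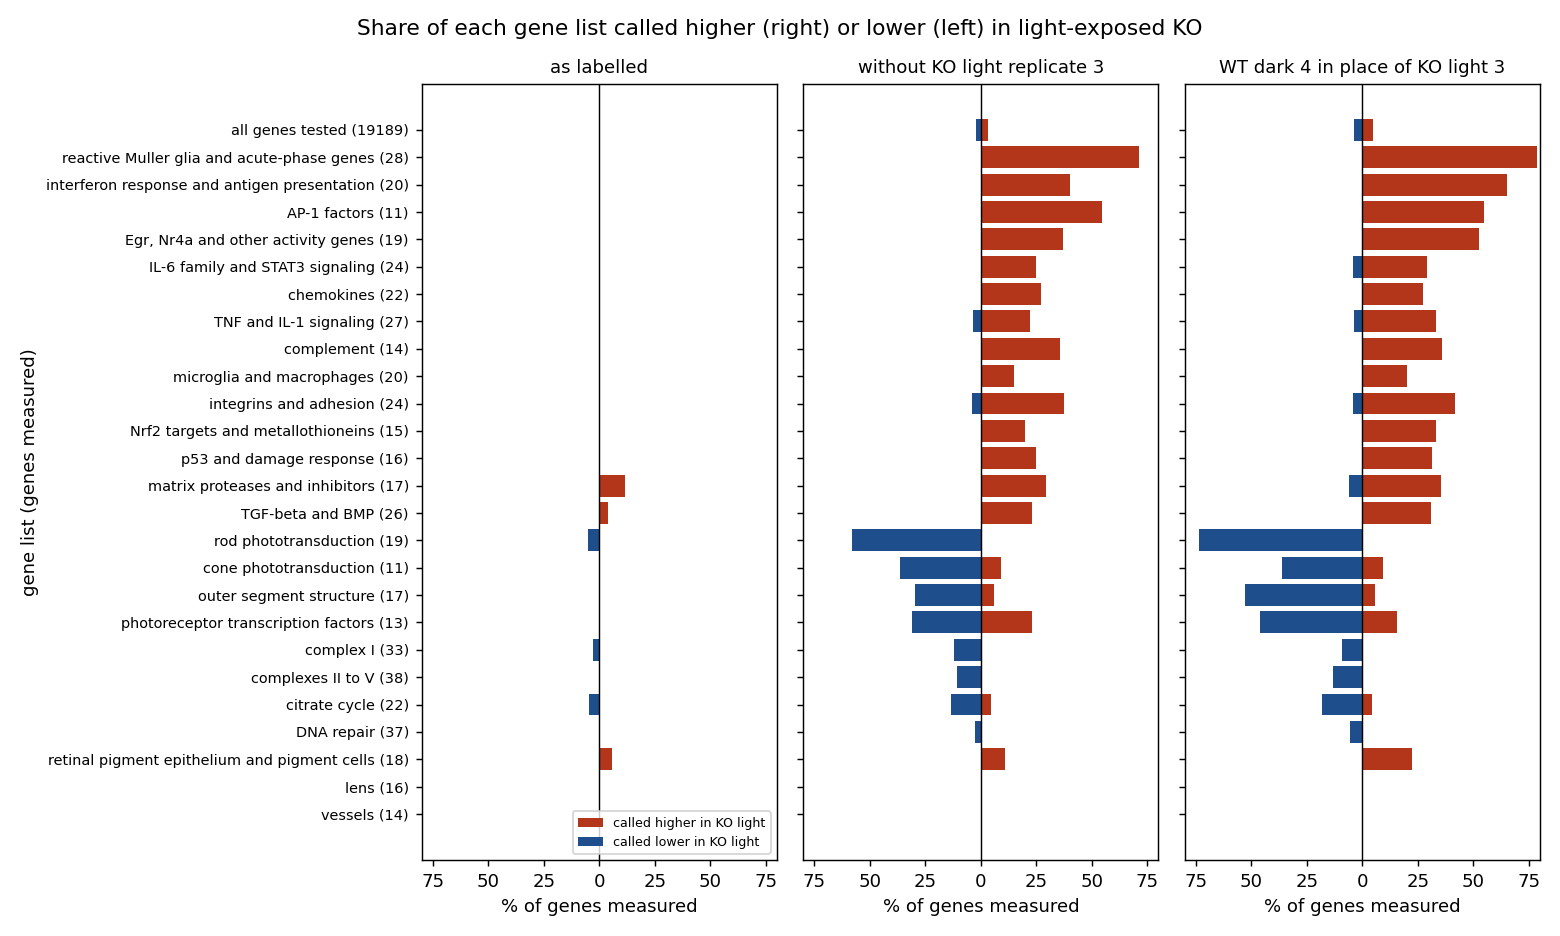
Percentage of each gene list (rows, with the number of genes measured) called higher in KO light (bars to the right) and lower (bars to the left), as labelled, without KO light replicate 3 and with WT dark replicate 4 in its place. Over all genes the shares higher and lower were 0.125% and 0.0573% in the first panel, 3.24% and 2.02% in the second and 4.64% and 3.69% in the third, while for reactive glia 22 of 28 were higher and for rod phototransduction 14 of 19 lower in the third.

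Adhesion and cytoskeleton lists held many of the other genes higher with the exchanged array, and none of their genes was called as labelled. Of 24 integrin and adhesion genes 10 were higher and 1 lower (median 0.18), and of 27 actin remodeling genes 12 were higher and none lower (median 0.22), with 9 higher in each without KO light replicate 3. Collagens, laminins and matrix proteins gave 5 higher and 2 lower of 25, axon guidance genes 3 and 1 of 26, and angiogenic factors 2 and 1 of 22. The p53 and damage response list had 5 of 16 higher, cytosolic heat shock chaperones 3 of 16 and antioxidant enzymes 3 of 15, with none lower. Mitosis genes gave 3 lower of 22, ubiquinone synthesis 2 lower of 12 and mitochondrial dynamics 1 lower of 12, with none higher. The visual cycle gave 1 higher and 2 lower of 14, and PGC-1 coactivators and partners 2 higher and 3 lower of 21. Over all genes 4.64% were higher and 3.69% lower in this reading, and 1 call in a list of this size lies near those shares.

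Pigment cell genes were uneven between the arrays. Dct, an enzyme of melanin synthesis, was at 7.81, 10.55 and 9.26 in KO light and at 7.23, 6.63 and 7.46 in WT light, and Tyrp1, another, at 8.16, 10.30 and 8.87 against 7.40, 6.96 and 7.50. In both, all KO light arrays lay above all WT light arrays and replicate 2 stood far above the others, and neither passed as labelled (2.10 and 1.82, adjusted p = 0.122 and 0.0826 in limma). Both were higher exchanged (1.91 and 1.71, adjusted p = 0.024 and 0.0122). Mlana, a melanosome protein, was at 7.15, 8.60 and 7.67 against 7.18, 6.97 and 6.88, and Rpe65, which defines the pigment epithelium, at 6.02, 6.14 and 6.64 against 7.75, 5.53 and 6.76. Gpnmb is a gene of this list too, and the part of pigment cells in its difference was not tested. The mean of the 18 genes of the list ranged from 7.53 to 8.07 (KO light) and from 7.07 to 7.43 (WT light), with 7.46 to 7.89 in the 6 dark arrays, so that WT light was the low group.

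Lens genes were high in some arrays of both genotypes. Crygd, a lens crystallin, was at 11.75, 8.41 and 7.39 in KO light and at 11.70, 7.01 and 8.81 in WT light, highest in replicate 1 of each group. Of 16 lens genes none was called in either reading, as held for 14 vessel and 14 muscle genes.

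Further genes were lower in KO light with the exchanged array, and Glb1l3 and Sik2 were lower in KO in darkness too. Sik2 lay at 9.55 to 9.85 in KO dark and at 10.39 to 10.49 in WT dark 1 to 3. Glb1l3, a galactosidase-like protein, was at 5.45, 7.10 and 8.29 in KO light and at 8.49, 8.30 and 8.32 in WT light, with 5.60 in WT dark replicate 4. Its difference was -1.42 (adjusted p = 0.249 in limma) as labelled and -2.32 (SE 0.31, adjusted p = 0.000517) exchanged, and in darkness KO lay at 7.47 to 7.68 and WT at 8.29 to 8.62. Its neighbor Glb1l2 had -0.33 (adjusted p = 0.526) and -0.79 (adjusted p = 0.00375), Sik2 -0.51 (adjusted p = 0.377) and -0.90 (adjusted p = 0.000241), and Cep164, a centriole protein, -0.30 (adjusted p = 0.64) and -0.79 (adjusted p = 0.000141). All 4 lie on chromosome 9, Glb1l2 and Glb1l3 at chr9:26763044-26806473 and chr9:26817953-26862099, Cep164 at chr9:45766946-45828686 and Sik2 at chr9:50889644-51009132 in GRCm38.p6. Of the 22 genes that separated KO dark from the WT arrays, 6 lie on chromosome 9, which holds 1165 of the 19189 genes tested. These 6 lie between the start of Glb1l3 at chr9:26817953 and the end of Sik2 at chr9:51009132. Ppargc1a itself lies on chromosome 5. The cause of their shared location was not tested. Over the whole of chromosome 9, 4.64% of 1165 genes were lower and 4.64% higher exchanged, beside 3.69% and 4.64% of all genes.

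Klk1b22, a kallikrein, had the largest difference with the exchanged array, 3.80 (SE 0.76, adjusted p = 0.00589 in limma), and 2.26 (adjusted p = 0.434) as labelled. It was at 8.96, 10.12 and 5.03 in KO light, at 7.43, 5.09 and 4.80 in WT light and at 9.65 in WT dark replicate 4. In darkness it was at 6.95 to 10.24 in KO and 4.71 to 5.24 in WT, so that 1 of the KO light arrays and 1 of the WT light arrays lay off their genotype's dark range. It belongs to a family of near-identical kallikrein genes whose signals may not be separate. Nnt and Crb1, which differ between C57BL/6 substrains, had -0.00 and -0.29 (adjusted p = 0.99 and 0.278) as labelled, and Crb1 was lower exchanged (-0.39, adjusted p = 0.00592).

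The interaction of genotype and light asked whether the difference after light differed, in either direction, from that in darkness. As labelled 12 genes (0.0625%) passed, 5 of them among the 35 genes called after light, and with the exchanged array 564 (2.94%) did, 402 with a higher and 162 with a lower value, 444 of them among the 1600. Lcn2 had an interaction of 1.38 (adjusted p = 0.573 in limma) as labelled and 2.13 (adjusted p = 0.0031) exchanged, and Nrl -0.37 (adjusted p = 0.734) and -0.64 (adjusted p = 0.032). For Sik2 it was 0.27 and -0.12 (adjusted p = 0.909 and 0.751), and for Asns 0.14 and 0.22 (adjusted p = 0.785 and 0.409).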

How the data were processed

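Whole-retina RNA was hybridized to Affymetrix Mouse Gene 1.0 ST arrays, 1 array per mouse. The labels name Trizol for extraction and the methods a kit. The authors deposited 1 intensity per probe set and array on a linear scale, and the arrays had similar medians. The submitters' processing notes name Partek, and the methods also Bioconductor. Versions, summarization, normalization, build and filters: not given in the sources used here. Their median intensity was 141.1 to 145.6. No background value was used, so dim probe sets were kept, and the number of arrays limits the precision.

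Intensities were taken to log2. Of 34760 probe sets, 21640 carry 1 gene symbol in the platform annotation, 1321 several and 11799 none. Of those with 1 symbol, 21553 matched the RefSeq table of GRCm38.p6. Averaging gave 19937 genes, 748 on X or Y were left out, and 19189 were tested. The 4 group means were estimated jointly from 12 arrays, WT dark replicate 4 being left out (8 residual degrees of freedom, no covariates), in limma 3.58.1 under R 4.3.3. The Benjamini-Hochberg adjustment covered every gene tested. The interaction was called at an adjusted p under 0.05 alone. The fit was tested on simulated data. The labels call the samples biological replicates.

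Sex is the same in the 6 light arrays and differs from that of the dark arrays compared with them. Genes named are those of the paper's Results, the 12 largest rises and falls called in each reading (without predicted genes, clones and small RNAs), up to 4 called members of each of 48 lists (2 where none was called), Nnt and Crb1, and genes named after their values were seen, which include the cell type markers, Crx, Vim, Trpm3, Mir204, Lif, Neurod1, Pde6h and the remaining genes called as labelled. The groups, lists and rules were chosen with earlier results of these data known. Listed names were matched by symbol, or by synonym where the name is no current symbol. Members of lists on X or Y, or without a probe set of their own symbol, were not analysed here.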

Additional observations from a re-analysis of the deposited data

Results flagged for a closer look

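Among the 4 arrays labelled WT dark, replicate 4 stood apart by its mean correlation with KO light replicates 1 and 2, 0.9974, against 0.9924 to 0.9926 in the others. The array had been singled out for this likeness, so the gap is a description.

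At 6 of the genes named here the genotype difference after light differed from that in darkness as labelled, by the interaction in limma (after light minus darkness). Cdkal1 had an interaction of 0.76 (adjusted p = 0.00386), with 0.65 after light and -0.11 in darkness. Pcolce had 1.30 (adjusted p = 0.0173), with 0.80 and -0.51. Shisa4 had 0.68 (adjusted p = 0.0345), with 0.56 and -0.12, and Anxa3 had 0.62 (adjusted p = 0.0345), with 0.49 and -0.14. Nt5e, the enzyme that makes adenosine from AMP, had -0.76 (adjusted p = 0.0337), with -0.43 and 0.33. Fndc1 had -2.03 (adjusted p = 0.0402), with -1.13 and 0.90. Sex is confounded with light in these arrays and is the same in both genotypes.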

How the results depend on the processing

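As labelled, 35 genes were called and 12 passed the interaction. The counts of called genes under other settings were 1600 with the exchanged array, 0 in the 6 light arrays alone (limma, 1616 at an unadjusted p under 0.05) and 1091 in those with the exchanged array, 13 with all 13 arrays, 5 without moderated variances, 64 with trend and robust moderation, 423 with array weights (KO light replicate 3 at a weight of 0.212), 57 with quantile normalization, and 77 among bright genes. Leaving out 1 light array gave 1 to 1009, the highest without KO light replicate 3 and the lowest without WT light replicate 1, and with the exchanged array 1434 and 2011 without KO light replicates 1 and 2, 1308, 1341 and 1433 without WT light replicates 1 to 3, and 1009 without WT dark replicate 4. The brightest probe set per gene, X and Y included, and no threshold on the ratio each gave 35, and without the ratio threshold the exchanged array gave 2324 (1420 higher and 904 lower). For the interaction the counts were 564 with the exchanged array, 42 with array weights, 7 with all 13 arrays, 1 without moderated variances and 1 to 255 on leaving out 1 light array, and with the exchanged array 332 and 1194 without KO light replicates 1 and 2, 279, 254 and 504 without WT light replicates 1 to 3, and 255 without WT dark replicate 4. The replicate number as a block gave 11 called genes and 3 for the interaction. Arrays of 1 number did not deviate together (correlations of 0.005, -0.176 and -0.197), so the numbers were taken not to pair the mice. No paired analysis was possible with the exchanged array because its number 4 has no partner. The genes called as labelled and the 12 largest rises and falls of each reading kept the sign of their difference after light under these settings. Of their values, 913 kept their side of the threshold, 252 lost the call and 215 gained it. The causes were not tested.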
